A study of Mus musculus with 9 samples.

Results

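Chaperones are the proteins that fold, refold and sort other proteins, and 70 of the 13081 genes in the kidney table carry their names. They were taken by symbol: the heat shock proteins (Hspa, Hspb, Hspd, Hspe, Hsph and Hsp90 genes, 25 symbols), the J proteins (Dnaja, Dnajb and Dnajc, 38) and the CCT subunits (Cct2 to Cct8, 7), with the proteoglycan gene Hspg2 left out. From what is known of their products, 38 were placed in the cytosol and nucleus, 13 in the endoplasmic reticulum (ER), 10 in mitochondria and 9 elsewhere. RNA was taken from kidneys of wild-type C57BL/6 mice at 3 months (young, 4 libraries) and at 16 months (old, 5 libraries), for which no mutation or treatment is given, so the comparison asks which of these transcripts differ with age. Libraries read the 3′ ends of polyadenylated transcripts and held 4486406 to 6355095 reads over the listed genes. All young titles share a prefix that no old title has, so a difference in preparation cannot be told apart from age, and p-values measure the spread between these libraries. The tissue is bulk kidney, in which fewer cells of a type and less RNA per cell cannot be told apart.

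Hsp70 proteins bind exposed hydrophobic stretches and release them in a cycle driven by ATP. J proteins bring them clients and speed that cycle, and Hsp110 proteins act as nucleotide exchange factors that reset it. Hsp90 finishes the maturation of kinases and steroid receptors, small heat shock proteins hold unfolded clients, and the chaperonins (CCT in the cytosol, Hsp60 with Hsp10 in mitochondria) fold clients inside a closed chamber. Heat shock factors switch many of these genes on through the heat shock element, while ER chaperones answer to the unfolded protein response, partly through the ER stress response element (ERSE). Kidney tubule cells are dense in mitochondria and carry a heavy load of membrane proteins made in the ER.

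The promoters in which either element was found are shown, and the changes of the members they belong to are given below. A strict heat shock element, GAANNTTCNNGAA on either strand, was searched in windows from 250 bases before to 50 bases after each start given by RefSeq on GRCm38.p6, an older build than the GRCm39 on which the reads were counted. It was found in Dnajb6, Hspd1, Hspe1 and Hsph1, 4 of the 56 members that had a window, and in 0.603% of all 32851 windows. The strict ERSE, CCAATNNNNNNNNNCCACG on either strand, was found in Dnajc3, Hsp90b1 and Hspa5 and in 0.119% of all windows. The matched letters are in capitals, and the window of Hspd1 is not shown because it shares 285 bases with that of Hspe1, from which it is read in the opposite direction.
Hspe1, chr1:55087898-55088197, plus strand: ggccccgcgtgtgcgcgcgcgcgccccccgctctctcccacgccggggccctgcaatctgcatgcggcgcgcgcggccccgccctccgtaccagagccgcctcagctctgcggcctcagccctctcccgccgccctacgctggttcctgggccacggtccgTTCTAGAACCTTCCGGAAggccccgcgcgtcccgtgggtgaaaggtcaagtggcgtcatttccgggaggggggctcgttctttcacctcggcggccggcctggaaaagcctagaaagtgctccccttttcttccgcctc
Hsph1, chr5:149636266-149636565, minus strand: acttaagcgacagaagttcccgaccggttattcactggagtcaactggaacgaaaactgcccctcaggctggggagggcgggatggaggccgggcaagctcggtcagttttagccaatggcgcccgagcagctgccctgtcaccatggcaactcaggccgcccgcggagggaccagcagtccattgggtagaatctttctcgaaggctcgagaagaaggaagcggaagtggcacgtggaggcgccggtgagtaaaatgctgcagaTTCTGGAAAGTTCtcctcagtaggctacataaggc
Dnajb6, chr5:29735648-29735947, plus strand: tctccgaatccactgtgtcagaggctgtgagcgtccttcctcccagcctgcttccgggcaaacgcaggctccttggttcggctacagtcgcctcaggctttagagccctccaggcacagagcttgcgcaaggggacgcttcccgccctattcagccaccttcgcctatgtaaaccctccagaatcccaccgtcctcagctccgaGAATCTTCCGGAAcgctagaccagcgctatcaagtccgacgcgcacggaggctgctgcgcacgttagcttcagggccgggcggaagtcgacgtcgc
Hspa5, chr2:34771840-34772139, plus strand: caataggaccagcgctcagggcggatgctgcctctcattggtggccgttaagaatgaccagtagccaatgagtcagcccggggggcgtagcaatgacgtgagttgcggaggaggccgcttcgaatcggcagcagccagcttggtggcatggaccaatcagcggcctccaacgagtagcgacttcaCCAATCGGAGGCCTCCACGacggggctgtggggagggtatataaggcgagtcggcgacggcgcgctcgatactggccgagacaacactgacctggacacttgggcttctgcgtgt
Hsp90b1, chr10:86705395-86705694, minus strand: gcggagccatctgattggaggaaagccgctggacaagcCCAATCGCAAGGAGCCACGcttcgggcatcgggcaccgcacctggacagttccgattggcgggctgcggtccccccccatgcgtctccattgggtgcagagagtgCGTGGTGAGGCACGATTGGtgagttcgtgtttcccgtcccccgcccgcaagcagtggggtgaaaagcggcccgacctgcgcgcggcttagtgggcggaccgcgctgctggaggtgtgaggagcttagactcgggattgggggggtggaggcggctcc
Dnajc3, chr14:118937682-118937981, plus strand: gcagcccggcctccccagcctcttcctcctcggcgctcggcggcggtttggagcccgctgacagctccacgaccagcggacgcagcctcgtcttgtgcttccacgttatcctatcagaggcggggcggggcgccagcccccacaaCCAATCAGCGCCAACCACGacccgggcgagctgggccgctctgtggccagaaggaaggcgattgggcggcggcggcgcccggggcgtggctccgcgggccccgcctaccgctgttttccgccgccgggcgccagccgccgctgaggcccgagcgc
In Hspe1 the capitals hold a pair of overlapping matches and begin 89 bases before the start, and in Hspa5 they begin 65 bases before it. Hsp90b1 holds 2 separate ERSE matches, while the match in Hsph1 lies after the annotated start. A match describes these letters only, and a window without one says only that these letters are not in it.

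As a group the chaperones were called about as often as any other genes. Of the 70 members, 68 had 10 normalised counts or more in 4 or more libraries and were tested (Dnajb5 and Hspb2 did not), and 41 (60.3%) were called, that is, had an adjusted p-value under 0.05 in limma's test of old against young, against 59.7% of all 12667 genes tested. Of the members, 19 (27.9%) rose and 22 (32.4%) fell, against 29.2% and 30.5% of all genes. A change of at least 1.5-fold was called in 27 members (39.7%, all genes 45.1%), and young and old values were fully apart in 35 (51.5%, all genes 49.0%). The median log2 fold change was -0.052 over members and -0.0027 over all genes, and the median size was 0.51 and 0.56. The members ran from -2.66 for Dnaja3 to 1.36 for Dnajb4. The balance of rises and falls depended on the scaling: 46.3% of called members were higher in old as the values were deposited, and 56.1% when the genes of the mitochondrial genome were left out and the rest scaled to equal totals, a scaling that moved the median of all genes to 0.13. Over all genes called, the higher share moved alike, from 48.9% to 58.5%. Of the 41 calls, 11 were lost under at least 1 alternative (Cct7, Cct8, Dnajc1, Dnajc8, Dnajc9, Dnajc11, Dnajc15, Dnajc16, Hsp90ab1, Hspa13 and Hspe1), and the other 30 held in all those in which they were tested, which for members with low counts leaves out the stricter filter.

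**Figure D1:**
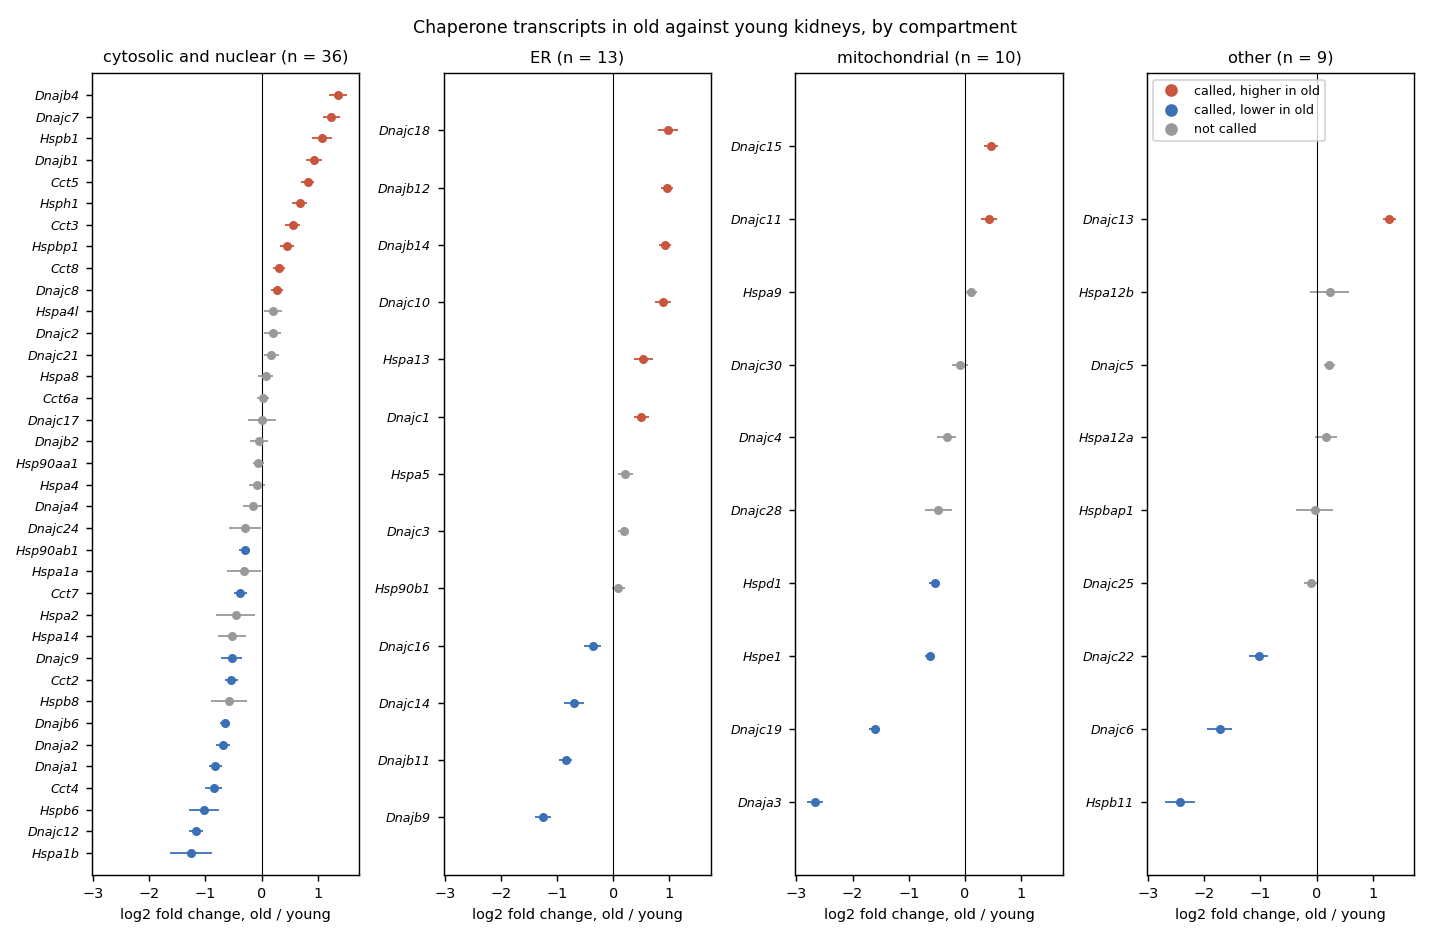
Log2 fold change of old (n = 5) over young (n = 4) kidneys for the 68 members tested, in 4 panels by compartment, with bars of 1 standard error. Red points rose, blue points fell and grey points were not called; every panel holds members on both sides of 0, from -2.66 (Dnaja3) to 1.36 (Dnajb4).

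The members took 0.539% to 0.569% of the reads in the table in young libraries and 0.453% to 0.521% in old ones. The genes of the mitochondrial genome took a larger share in old libraries, 35.8% to 38.1% against 27.0% to 29.7%, and over the reads outside those genes the ranges of the members overlapped, at 0.767% to 0.796% in young and 0.727% to 0.832% in old. By compartment, the ages were apart on both bases for the chaperones that work in mitochondria, which are encoded in the nucleus, and for the members with work elsewhere. The mitochondrial share was lower in old libraries. It was 0.121% to 0.137% of all reads in young and 0.0819% to 0.0938% in old, and 0.168% to 0.188% and 0.131% to 0.147% of the reads outside the mitochondrial genome. The members with work elsewhere took more, at 0.0185% to 0.0207% of all reads in young and 0.0218% to 0.0264% in old, and 0.0264% to 0.0289% and 0.0350% to 0.0423% of the reads outside that genome. By gene, only Dnajc13 of this group was called higher (mean 269 normalised counts in young and 667 in old), and 3 were called lower. Cytosolic and nuclear members lay lower in every old library over all reads, at 0.309% to 0.329% and 0.246% to 0.291%, but overlapped over the reads outside the mitochondrial genome, at 0.437% to 0.460% and 0.394% to 0.467%. The most abundant of them, Hsp90ab1, went from a mean of 7006 to 5693 normalised counts, and by gene 10 were called higher and 11 lower. The ER members overlapped between the ages over all reads, at 0.0899% to 0.107% in young and 0.0951% to 0.117% in old, but lay higher in every old library over the reads outside the mitochondrial genome, at 0.126% to 0.148% and 0.153% to 0.189%.

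**Figure D2:**
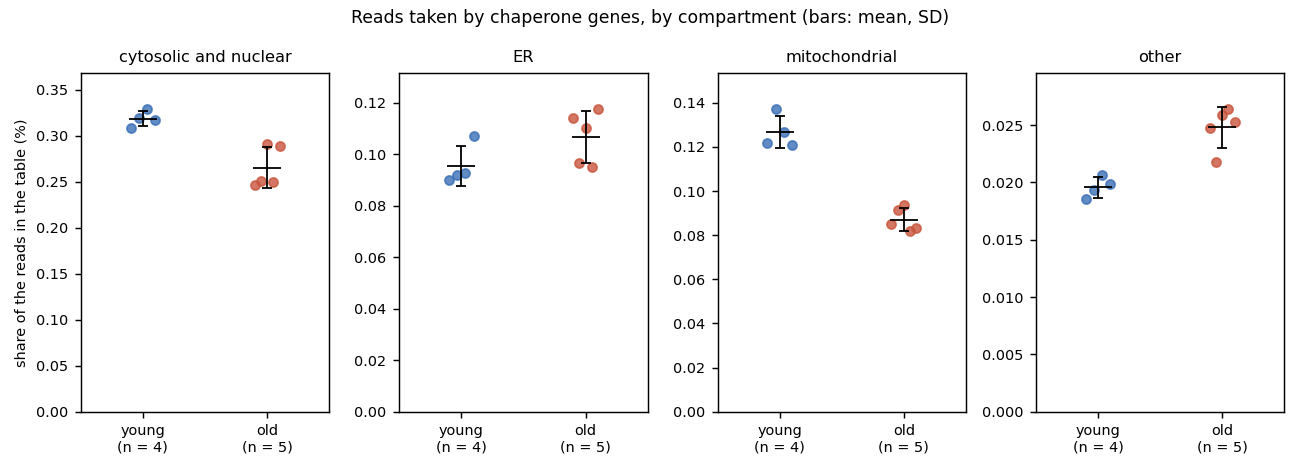
Share of the reads in the table that each compartment's chaperone genes took, as a percent of all reads, in each young (n = 4, blue) and old (n = 5, red) library, with the mean and SD in black. The mitochondrial group lies lower in every old library (0.0819% to 0.0938%) than in any young one (0.121% to 0.137%), the cytosolic and nuclear group also lies lower (0.246% to 0.291% against 0.309% to 0.329%), the group with work elsewhere lies higher (0.0218% to 0.0264% against 0.0185% to 0.0207%), and the ER groups overlap.

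Of the 16 Hsp70, Hsp110 and Hsp90 genes tested over all compartments, 4 (25%) were called, against 59.7% of all genes tested, and whether these large ATP-driven chaperones differ from other genes was not tested. Among them 2 rose (Hsph1 and the ER-associated Hspa13), 2 fell (Hsp90ab1 and Hspa1b), and the median was 0.083 on the log2 scale. Hspa8, the constitutive cytosolic Hsp70, had 1099.9, 843, 1229 and 864 normalised counts in the young libraries. In the old ones it had 962, 1023, 899, 1020.5 and 1409. The ages overlapped, and the log2 fold change was 0.075 (95% interval -0.24 to 0.39, limma adjusted p 0.646). In the last 500 bases of its transcript, 81.8% of the 50-base stretches are shared on the same strand with other annotated genes, among them Gm15459, so its reads could be split or dropped.

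Of the cytosolic Hsp90 pair, the constitutive gene fell and the inducible one was not called. Hsp90ab1 had 6609, 7126, 7427 and 6862 normalised counts in young and 5530.5, 5278, 5594, 5509 and 6554 in old libraries. Every old library lay below every young one, with old replicate 5 close to the lowest young library, and the change was -0.30 (SE 0.10, limma adjusted p 0.0106). This call was lost with the mitochondrial genome left out of the scaling (-0.16, adjusted p 0.148) and with a transcript length trend removed (-0.20, adjusted p 0.0771). Hsp90aa1, which heat induces, went from 573 ± 42.7 to 552 ± 62.98 (SD, n = 4 and 5), a log2 fold change of -0.059 with overlapping ages (95% interval -0.30 to 0.18).

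Among the Hsp110 exchange factors the stress-inducible Hsph1 rose. Its young libraries had 163, 173, 192 and 148 normalised counts and its old ones 251, 239.6, 246, 278 and 347. Each old library was above all young ones, with a log2 fold change of 0.68 (SE 0.13, limma adjusted p 0.00016). Hspa4, the constitutive Hsp110, had a log2 fold change of -0.084 (95% interval -0.43 to 0.27) and a wider spread among old libraries, from 203 to 353 normalised counts against 285 to 309.8 in young.

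Genes that heat induces were called at shares near those of all genes. Of 14 heat-inducible members, 4 (28.6%) rose (Dnajb1, Dnajb4, Hspb1 and Hsph1), 4 (28.6%) fell (Dnaja1, Hspa1b, Hspd1 and Hspe1) and 6 were not called, against 29.2% higher and 30.5% lower over all genes tested, with a median log2 fold change of -0.11. Hspb1 (Hsp27), a small heat shock protein that also binds actin, had 65.5, 81.6, 71.6 and 80.6 normalised counts in young and 174, 128, 248, 123 and 142 in old libraries. It rose without overlap, with a log2 fold change of 1.07 (SE 0.18, limma adjusted p 4.88e-05), and 15.96% of its last 50-base stretches are shared with Hsp25-ps1.

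The inducible Hsp70 pair had few reads and varied between old libraries. Hspa1a had 34.4, 50.5, 36.3 and 37.1 normalised counts in young libraries and 34.2, 18.6, 63.9, 17.7 and 41.4 in old ones. Old replicate 3 held the highest value of all 9 and old replicate 4 the lowest, and the ages overlapped, with a log2 fold change of -0.31 (95% interval -1.04 to 0.42). Hspa1b had 31.1, 34.98, 31.4 and 54.3 in young and 14.1, 17.5, 40.6, 9.33 and 7.43 in old libraries. Old replicate 3 again stood highest among the old, and was the only old library inside the young range, while the gene as a whole fell, with a log2 fold change of -1.26 (SE 0.37, limma adjusted p 0.00678). These neighbours encode near-identical proteins, though their last 500 bases shared 0% of 50-base stretches with another gene, and their summed counts gave -0.68 (limma adjusted p 0.0402).

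Different old libraries held the highest values of these genes. Hspa1a, Hspa1b, Hspb1 and Hspb8 had their highest old value in old replicate 3. Another 7 (Dnaja1, Dnaja4, Dnajb1, Hsp90aa1, Hspa4l, Hspa8 and Hsph1) had theirs in old replicate 5. Hspb8, a small heat shock protein that works with Bag3 in selective autophagy, had 25.9, 14.2, 49.7, 13.1 and 25.5 normalised counts in old libraries and 34.4, 39.8, 35.3 and 29.9 in young ones, with a log2 fold change of -0.58 (limma adjusted p 0.117) that passed the threshold without old replicate 3 (-0.85, adjusted p 0.0116). Immediate-early genes, which respond to handling and the interval before freezing, summed to 997 normalised counts in old replicate 3, 647 to 827 in the other old libraries and 660.1 to 844 in the young ones (9 of 11 listed genes in the table). Old replicate 3 also stood apart from the rest of its group in markers of other cell types and in Cryab. The collecting duct water channel Aqp2 had 2267 normalised counts there, against 334 to 694 in the remaining old kidneys and 746 to 1376 in young ones. The small heat shock protein Cryab had 735, against 152 to 304 in the remaining old and 501 to 683 in young kidneys. It was called lower in old (-1.30, limma adjusted p 0.00169). The adipocyte gene Fabp4 had 424, above the remaining old (54.1 to 120.2) but inside the young range (269 to 897). It too was called lower (-1.89, limma adjusted p 0.000595). Adipoq had 189, against 0.93 to 71.9 in the remaining old and 0 to 40.8 in young kidneys, highest in young replicate 2. The part of these genes in the values of old replicate 3 was not tested. Without that library Hspb1 was still called higher (0.91, adjusted p 6.03e-05) and Hspa1b lower (-1.60, adjusted p 0.00021). Of the heat shock factors themselves, Hsf1 fell from 88.6 ± 8.83 to 33.3 ± 9.43 normalised counts, a log2 fold change of -1.43 (limma adjusted p 1.16e-05), and Hsf2 rose by 0.58 (adjusted p 0.0071).

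**Figure D3:**
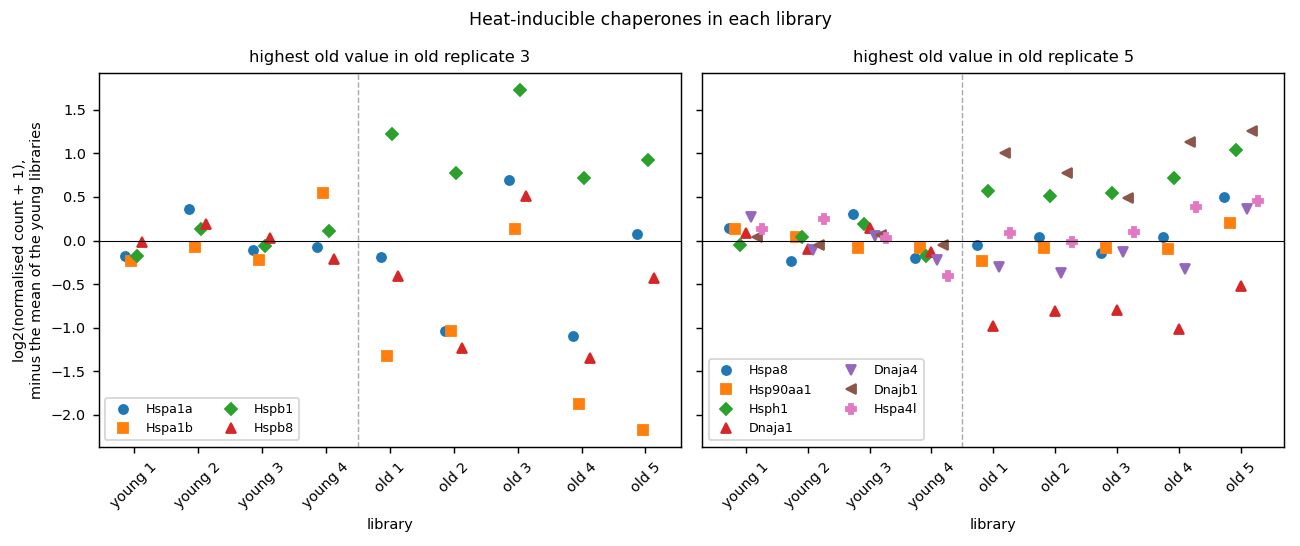
Heat-inducible members in each library, as log2(normalised count + 1) minus the mean of the 4 young libraries, for the 4 genes whose highest old value was in old replicate 3 (left) and the 7 whose highest old value was in old replicate 5 (right). Hspb1, Hsph1 and Dnajb1 lie above 0 in all 5 old libraries and Dnaja1 below it, while Hspa1a and Hspb8 scatter to both sides.

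J proteins moved in both directions, at shares near those of all genes. Of 37 tested, 25 (67.6%) were called, near the 59.7% of all genes, with 12 (32.4%) higher and 13 (35.1%) lower against 29.2% and 30.5%. Of 24 Hsp symbols 10 (41.7%) were called, 4 higher and 6 lower, and the difference between these families was not tested. The class A J proteins, the closest relatives of bacterial DnaJ, were lower or not called, with Dnaja1, Dnaja2 and Dnaja3 called lower and Dnaja4 at -0.16 (limma adjusted p 0.482). Dnaja1, a general partner of Hspa8, had 613, 536, 637 and 523 normalised counts in young and 291, 328, 329.6, 284 and 399.9 in old libraries. The ages were well apart, with a log2 fold change of -0.83 (SE 0.11, limma adjusted p 4.80e-06). Every 50-base stretch in its annotated end also lies in Smu1, but on the opposite strand, and the counting kept strands apart.

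Class B J proteins of the cytosol split. Dnajb1 (Hsp40), which directs Hsp70 to aggregated proteins, had 119.6, 113, 122 and 112 normalised counts in young and 235, 200.2, 164, 256 and 280.1 in old libraries. All old libraries lay above the young, which varied little, with a log2 fold change of 0.93 (SE 0.14, limma adjusted p 1.78e-05). Its heat-inducible relative Dnajb4 (chromosome 3, 152178511 to 152210302, GRCm38, GENCODE vM21) had 62.2, 68.02, 49.02 and 47.98 in young and 127, 126, 134, 182 and 171 in old libraries, the largest rise among the members tested, with a log2 fold change of 1.36 (SE 0.16, limma adjusted p 9.01e-07). Dnajb6, which suppresses aggregation and carries the heat shock element shown above, fell from 936 ± 54.7 to 595 ± 32.8, with a log2 fold change of -0.65 (SE 0.089, limma adjusted p 4.38e-06), and so moved against Hsph1, which carries one too. Dnajb2 was not called (log2 fold change -0.046).

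In class C, whose members mostly serve a special site, 8 of 25 genes (32%) rose over all compartments and 7 (28%) fell, near the 29.2% and 30.5% of all genes. Dnajc7, which links Hsp70 to Hsp90 through its TPR repeats, had 73.7, 54.4, 60.8 and 63.4 normalised counts in young and 129.7, 140.0, 177, 129 and 177 in old libraries. It rose without overlap, with a log2 fold change of 1.24 (SE 0.15, limma adjusted p 1.24e-06). Dnajc12, a partner of the aromatic amino acid hydroxylases, had 1409, 1048, 1187 and 1213 in young libraries, and 484, 664, 637, 425 and 503 in old ones. The old values lay well below, with a log2 fold change of -1.17 (SE 0.13, limma adjusted p 2.71e-07). Dnajc9, a histone chaperone, fell by 0.53 on the log2 scale, while the splicing-associated Dnajc8 rose by 0.28 with overlapping ages.

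Partners of the cytosolic Hsp70 and Hsp90 machines, 25 genes outside the member symbols, gave 6 rises (24%) and 8 falls (32%), near the 29.2% and 30.5% of all genes, with a median of 0.041. Stip1 (Hop), which hands clients from Hsp70 to Hsp90, rose from 149 ± 12.7 to 371 ± 46.2 normalised counts, a log2 fold change of 1.31, and the kinase adaptor Cdc37 rose by 0.78. The Hsp90-bound phosphatase Ppp5c fell by 1.14, the glucocorticoid-responsive immunophilin Fkbp5 by 1.56 and Bag6, which handles tail-anchored and mislocalised proteins, by 0.75 on the same scale. The limma adjusted p of these 5 ran from 2.26e-08 to 6.92e-06.

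The CCT subunits, which share a ring and fold actin and tubulin, were called in both directions. Of the 7 genes, 3 (42.9%) rose, 3 (42.9%) fell and 1 was not called, against 29.2% and 30.5% of all genes, with a median log2 fold change of 0.027. Cct5 had 201, 188, 179 and 223 normalised counts in young libraries, and 377, 273, 358, 348 and 399.9 in old ones. It rose without overlap, with a log2 fold change of 0.82 (SE 0.12, limma adjusted p 1.13e-05). Cct4 went the other way: it had 191, 200.2, 159 and 144 in young and 94.3, 115, 106, 77.4 and 84.9 in old libraries. Every old value was under every young one, with a log2 fold change of -0.85 (SE 0.15, limma adjusted p 7.22e-05).

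The changes of the other CCT genes were smaller, and the calls of Cct7 and Cct8 were lost under at least 1 alternative. Cct3 rose from 164 ± 7.18 to 245 ± 43.9 (0.55, limma adjusted p 0.00144), with old replicate 5 close to the young range, at 184 against a young maximum of 174. Cct2 fell from 348 ± 22.1 to 240.3 ± 25.9 (-0.54, adjusted p 0.000309), or by 0.35 on the log2 scale with the length trend removed. Cct7 fell from 458 ± 51.99 to 353 ± 37.1 (-0.38, adjusted p 0.00599) and lost its call with the mitochondrial genome left out of the scaling (-0.23, adjusted p 0.0702). Cct8 rose from 332 ± 42.4 to 409 ± 15.7 (0.31, adjusted p 0.0156), a call lost without young replicate 2 (0.27, adjusted p 0.0607) or without young replicate 3 (0.25, adjusted p 0.0751). Cct6a had 271 ± 29.9 and 275 ± 12.2 (SD), a log2 fold change of 0.027 (95% interval -0.23 to 0.28).

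The first subunit of the ring is encoded by Tcp1, whose symbol the rule does not reach; it rose from 181 ± 16.9 to 273 ± 48.5 normalised counts (0.58, limma adjusted p 0.000935). Among the 15 partners that feed or follow the ring (Tcp1 itself, prefoldin, phosducin-like proteins and tubulin cofactors), 9 (60%) fell and 2 (13.3%) rose, against 30.5% and 29.2% of all genes, with a median of -0.43 on the log2 scale. The falls included the prefoldin subunits Pfdn6 (-0.92) and Vbp1 (-0.99) and the phosducin-like Pdcl3 (-2.10), and besides Tcp1 the tubulin cofactor Tbcd rose (0.73). The partners' median transcript length was 1595 bases, against 3075 bases over all genes tested.

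**Figure D4:**
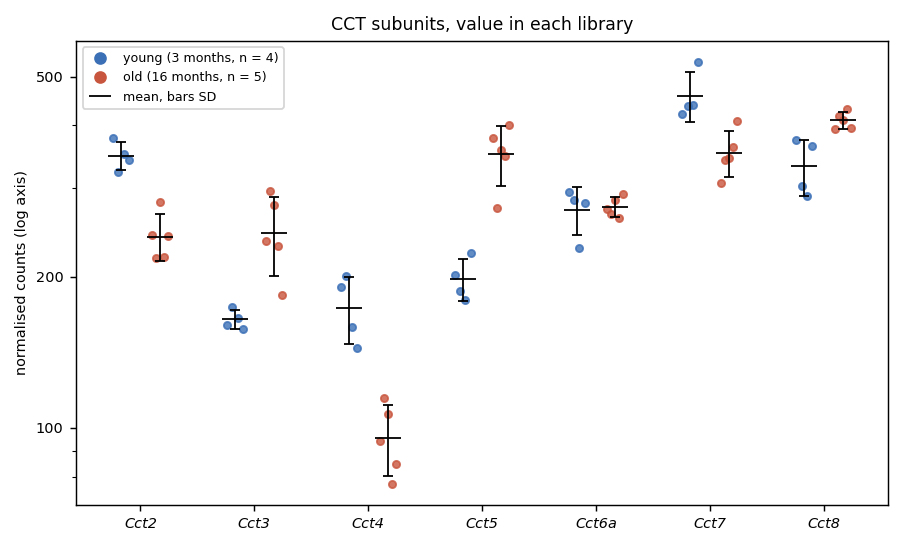
Normalised counts (log axis) of the 7 CCT genes in each young (n = 4, blue) and old (n = 5, red) library, with the mean and SD in black. Cct3, Cct5 and Cct8 lie higher in old, Cct2, Cct4 and Cct7 lower, and Cct6a overlaps.

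In the ER, the main lumenal chaperones Hspa5 and Hsp90b1 were not called, while their J proteins moved in both directions. Of 13 ER members, 6 (46.2%) rose and 4 (30.8%) fell, against 29.2% and 30.5% over all genes, with a median log2 fold change of 0.22, and of the 8 that work in the lumen 3 rose and 2 fell. Hspa5 (BiP), the ER Hsp70, had 1621, 1392, 1639 and 2044 normalised counts in young libraries. The old ones had 2376, 1795, 1751, 1599.8 and 2234. The ages overlapped, with a log2 fold change of 0.22 (95% interval -0.079 to 0.51, limma adjusted p 0.143), which passed the threshold without young replicate 4 (0.32, adjusted p 0.0420) and with the mitochondrial genome left out of the scaling (0.36, adjusted p 0.0188).

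The other members whose promoters hold an ERSE were not called in the main test either. Hsp90b1 (Grp94), the ER Hsp90, went from 1046 ± 80.1 to 1126 ± 195 (SD), with a log2 fold change of 0.092 (95% interval -0.18 to 0.36), and old replicate 5 held its highest value of 1432. Dnajc3 (p58IPK), a J protein that also restrains the kinase PERK, went from 421 ± 42.5 to 478 ± 42.3, with one of 0.18 (95% interval -0.061 to 0.43). Dnajc3 passed the threshold with the mitochondrial genome left out of the scaling (0.32, limma adjusted p 0.0111) and was at -0.039 with the length trend removed. The upper bounds of the 3 intervals ran from 0.36 to 0.51, so rises up to that size are within the error here.

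The J proteins that serve BiP moved in opposite directions. Dnajb9 (ERdj4), which returns the sensor Ire1 to its resting state and marks misfolded proteins for degradation, had 149.9, 139, 141 and 150.3 normalised counts in young libraries. Its old libraries had 48.3, 68.9, 65.9, 53.2 and 68.95. No old library came near the young ones, with a log2 fold change of -1.25 (SE 0.15, limma adjusted p 9.38e-07). Dnajb11 (ERdj3), which delivers nascent proteins to BiP, had 310.4, 385, 424 and 389 in young and 237, 207, 213, 190.3 and 198 in old libraries. It too fell without overlap, with a log2 fold change of -0.84 (SE 0.11, limma adjusted p 4.18e-06). Dnajc10 (ERdj5), a disulfide reductase, had 97.5, 83.6, 64.7 and 98.7 in young and 139, 143, 162, 173 and 174 in old libraries, and rose, with a log2 fold change of 0.88 (SE 0.15, limma adjusted p 4.38e-05).

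The J proteins anchored in the ER membrane made up a further 5, of which 3 (60%) rose and 2 (40%) fell, against 29.2% and 30.5% of all genes. Dnajb12 and Dnajb14, related proteins that face the cytosol and help remove faulty membrane proteins, rose together. Dnajb12 had 229, 265, 266 and 208 normalised counts in young and 466, 485, 483, 443 and 474 in old libraries. Its ages lay far apart, with a log2 fold change of 0.96 (SE 0.10, limma adjusted p 2.44e-07). Dnajb14 gave a log2 fold change of 0.92 and Dnajc18, a relative of both, one of 0.97 (adjusted p 9.01e-05), both without overlap. The falls were in Dnajc14 and Dnajc16, at -0.70 and -0.37, with overlapping ages in each.

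Of 18 other ER folding genes, 5 (27.8%) were higher and 5 (27.8%) lower, close to the 29.2% and 30.5% of all genes, with a median of -0.025 on the log2 scale. The disulfide isomerases Pdia4 and Pdia3 rose, Pdia4 from 155 ± 22.8 to 787 ± 92.04 normalised counts (2.34) and Pdia3 from 471 ± 55.9 to 1722 ± 161 (1.87). Sdf2, which binds ERdj3, fell by 2.04 on the log2 scale, the secreted ER protein Manf by 1.18 and Xbp1, a transcription factor of the unfolded protein response that drives Dnajb9, by 1.35. The limma adjusted p of these 5 was at most 6.72e-06.

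Of 10 mitochondrial chaperones, 4 (40%) were lower in old kidneys and 2 (20%) higher, that is, 60% called where all genes gave 59.7% (30.5% lower and 29.2% higher). Their median was -0.40 on the log2 scale. Without the mitochondrial genome in the scaling the median was -0.26, and with a transcript length trend removed it was -0.090. Dnaja3 (Tid1; chromosome 16, 4639989 to 4707695, GRCm38, GENCODE vM21), the matrix J protein of the mitochondrial Hsp70, had 297, 353, 304 and 346 normalised counts in young libraries. Its old libraries had 60.1, 45.9, 58.8, 45.7 and 43.5. The old values lay far under the young ones, with a log2 fold change of -2.66 (SE 0.14, limma adjusted p 2.25e-11), the largest fall among the members tested. Dnajc19 (Tim14), which drives the import motor at the inner membrane, had 715, 731, 672 and 655 in young and 209.8, 243, 245, 227 and 213 in old libraries, again far apart, with a log2 fold change of -1.60 (SE 0.10, limma adjusted p 1.47e-10).

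The chaperonin pair fell by similar amounts. Hspd1 (Hsp60) forms the chamber, and had 1545, 1464, 1498 and 1279 normalised counts in young and 971, 1077, 1037, 875 and 1009.9 in old libraries. Hspe1 (Hsp10), its lid, had 2032, 2428, 2412 and 2084 in young and 1522, 1491, 1335, 1400.1 and 1482 in old libraries. Neither overlapped between the ages, with log2 fold changes of -0.54 (SE 0.093, limma adjusted p 6.42e-05) and -0.63 (SE 0.091, adjusted p 8.91e-06). The genes lie head to head and share the promoter window printed above. The call of Hspe1, a short transcript of 774 bases, was lost with the length trend removed (-0.21, adjusted p 0.0519), and 53.2% of the 50-base stretches in its end are shared with other annotated genes, Hspe1-ps2 among them, which is 0% for Hspd1.

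Hspa9 (mortalin), the mitochondrial Hsp70 that both Dnaja3 and Dnajc19 serve, was not called. It had 1002, 1055, 947 and 972 normalised counts in young and 961, 1236, 1198, 1061 and 941 in old libraries. The ages overlapped and the log2 fold change was 0.11 (95% interval -0.12 to 0.35, limma adjusted p 0.35), which passed the threshold with the mitochondrial genome left out of the scaling (0.25, adjusted p 0.0454). The 2 rises were in Dnajc15, a relative of Dnajc19 at the import motor (0.46), and Dnajc11, an outer membrane protein tied to the cristae (0.42).

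Among 13 mitochondrial partners outside the member symbols, 6 (46.2%) rose and 3 (23.1%) fell, against 29.2% and 30.5% of all genes, and their median was 0.032 on the log2 scale. The disaggregase Clpb rose from 179 ± 8.41 to 328 ± 41.6 normalised counts (0.86) and the inner membrane protease Yme1l1 rose by 0.91. Hscb, a J protein under another name that serves iron-sulfur cluster assembly, fell from 138 ± 11.6 to 37.2 ± 5.43 (-1.87), and the protease subunit Afg3l2 fell by 1.07. The limma adjusted p of these 4 was at most 2.80e-05.

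**Figure D5:**
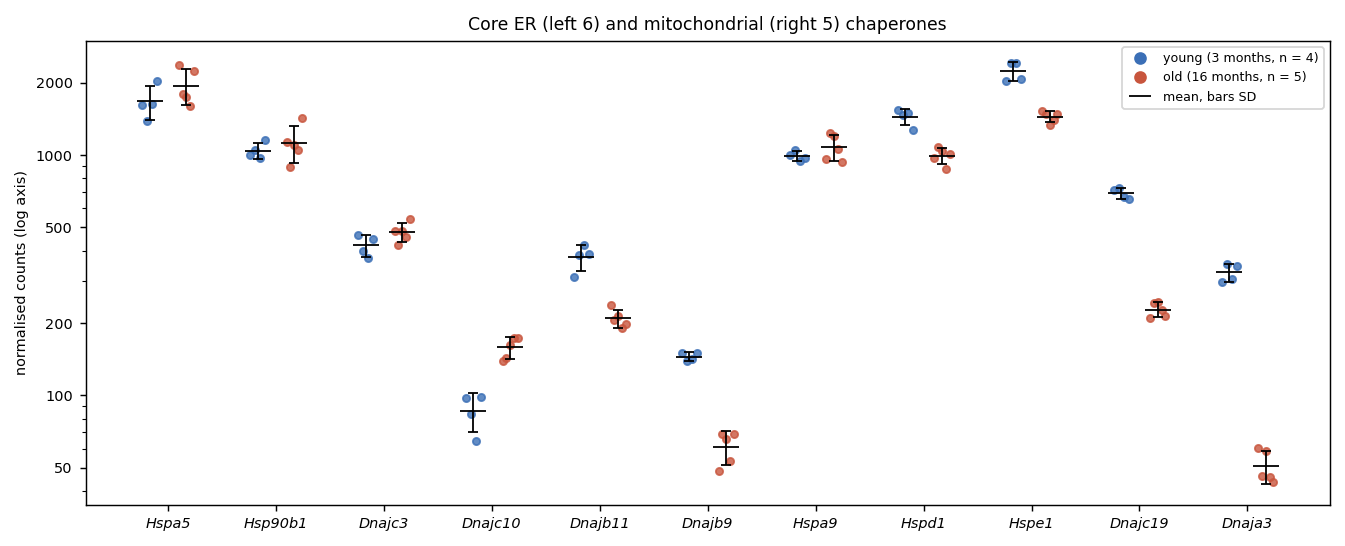
Normalised counts (log axis) of 6 core ER chaperones (left) and 5 core mitochondrial chaperones (right) in each young (n = 4, blue) and old (n = 5, red) library, with the mean and SD in black. Hspa5, Hsp90b1, Dnajc3 and Hspa9 overlap between the ages, Dnajc10 lies higher in old, and Dnajb11, Dnajb9, Hspd1, Hspe1, Dnajc19 and Dnaja3 lie lower.

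Of the 9 members with work elsewhere, 1 (11.1%) rose and 3 (33.3%) fell, against 29.2% and 30.5% of all genes. Dnajc13 (Rme-8; chromosome 9, 104151282 to 104262930, GRCm38, GENCODE vM21), which sorts cargo on endosomes, had 278, 242, 294 and 263 normalised counts in young and 659, 557, 598, 773 and 746 in old libraries. It rose without overlap, with a log2 fold change of 1.30 (SE 0.11, limma adjusted p 1.57e-08), or 0.85 with the length trend removed. Dnajc6 (auxilin), which strips clathrin from vesicles, had 52.4, 53.4, 72.6 and 66.99 in young and 15.3, 14.2, 20.3, 17.7 and 22.3 in old libraries and fell, with a log2 fold change of -1.72 (SE 0.22, limma adjusted p 2.06e-06). Hspb11 (Ift25; chromosome 4, 107253593 to 107279938, GRCm38, GENCODE vM21) bears a heat shock symbol but is a subunit of the ciliary transport train. It ran from 37.7 to 51.6 normalised counts in young and from 6.36 to 10.9 in old libraries, about 6 to 10 reads each, all of the latter lower, with a log2 fold change of -2.44 (SE 0.27, limma adjusted p 3.30e-07). The membrane J protein Dnajc22 fell by 1.03.

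Marker genes of several cell types also differed in level between the ages. All 13 kidney markers were in the table, and their sum, in which the androgen-responsive Kap dominates, was 182720 to 214472 normalised counts in young and 127082 to 172112 in old libraries. Marker by marker they did not fall together: 5 (38.5%) were called higher and 4 (30.8%) lower, against 29.2% and 30.5% of all genes. Their median log2 fold change was 0.14. The rises included Lrp2 (0.95), Slc12a3 (1.04) and Pax2 (1.33), and the falls were Slc22a6 (-1.26), Kap (-0.69), Slc5a2 (-0.52) and Cdh16 (-0.32). Endothelial markers (6 of 6 in the table) summed to 929.9 to 990.1 in young and 1235 to 1483 in old libraries, smooth muscle markers (5 of 5) to 284 to 439 and 662 to 890.4, and immune markers (7 of 10) to 473 to 533 and 554 to 728. By marker, 4 of 6 endothelial (66.7%), 2 of 4 smooth muscle (50%) and 3 of 6 immune genes tested (50%) were called higher. Over all genes 29.2% were, and 0 of these markers were called lower. The rest were not called, among them Emcn (-0.12), Cdh5 (0.0048) and Lyz2 (-0.023). Of 8 adipocyte markers 5 were in the table, at 4046 to 5731 and 1198 to 2495, mostly from Pck1, which tubule cells also express, and 0 of 8 skeletal muscle and 0 of 6 adrenal markers were. The 4 Y-linked genes summed to 311 to 355 in young and 394 to 510.3 in old libraries, so Y transcripts were read in every library. Xist was not in the table, and the labels give no sex. Genes that follow the time of day (14 of 15 in the table) gave 3 rises (21.4%) and 5 falls (35.7%), against 29.2% and 30.5% of all genes. The part of each in the changes of the chaperones was not tested.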

How the data were processed

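Total RNA from kidneys was turned into libraries by reverse transcription from oligo(dT), with a kit that reads 3′ ends. The authors aligned reads to GRCm39 with TopHat2 2.0.10, counted them by strand with HTSeq 0.6.1 on GENCODE vM26 followed by DESeq normalisation. Each deposited value is thus a signal in units of scaled reads, the read count of a gene over its library's size factor. All values (100%, within 0.001 reads) came out as whole reads, which gave 4486406 to 6355095 reads a library. The lowest gene mean was 4.49 normalised counts, so rarer genes had been removed, and 12 further chaperone symbols were not analysed here.

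Groups follow the age in the labels, and replicate numbers follow listing order. The test was limma 3.58.1 (R 4.3.3, eBayes with trend) on log2(normalised count + 1), old against young, Benjamini-Hochberg adjusted over 12667 genes, with calls at 0.05. Fold changes on this scale understate those of low genes, and 95% intervals use the limma SE and the residual degrees of freedom of the 9 libraries. On the recovered reads, 7649 genes were called by edgeR 4.0.16 (quasi-likelihood) and 7532 by DESeq2 1.42.0, against 7568 by limma. Further alternatives changed the pseudocount (0.1 or 5), the filter, the scaling, the compartments, or left out each library in turn, and 1 removed a transcript length trend by lowess.

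The named genes were 29 core members plus the 6 largest rises and falls among called members whose ages did not overlap. For partner lists, members with the largest moderated t were named. Other members in the text, such as Dnajb6 and Dnajb14, were chosen after their values were seen. The members, compartments and lists were chosen with earlier results of these data known. Transcript lengths (98.3% of genes, by symbol) and 50-base stretches shared between genes were computed from GENCODE vM21, a GRCm38 annotation, and promoters are those of RefSeq.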

Additional observations from a re-analysis of the deposited data

Results flagged for a closer look

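In each age group the highest or lowest library was set against the rest by Dixon's criterion at 95%, over 88 groups of values, of which chance flags about 1 in 20 (4.4 here), and 9 stood apart. Among the cytosolic chaperones, old replicate 5 had 1409 normalised counts of Hspa8 (other old libraries 899 to 1023) and 6554 of Hsp90ab1 (others 5278 to 5594). Young replicate 2 had 50.5 of Hspa1a (others 34.4 to 37.1), young replicate 4 had 54.3 of Hspa1b (others 31.1 to 34.98) and 535 of Cct7 (others 422 to 438), and old replicate 2 had 10.9 of Hspb11 (others 6.36 to 7.46).

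Of the shares of reads, young replicate 1 had 0.539% in chaperone genes (other young libraries 0.565% to 0.569%). Young replicate 4 had 0.107% in ER chaperones (others 0.0899% to 0.0928%), where Hspa5, Hsp90b1 and Dnajb9 had their highest young values. Old replicate 3 had 35.8% in the mitochondrial genome (others 37.4% to 38.1%).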

How the results depend on the processing

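The counts of members called, 41 of 68 in the main test, ran from 34 to 42 over all alternatives tried. The 34, of 49 members tested, came under the filter on a mean of 100 normalised counts, where 4101 of 5655 genes were called. Of the 41 called members 30 kept call and direction in all alternatives that tested them. The filter on a mean of 100 left 49 members, and their median log2 fold change was 0.11 (0.12 for cytosolic and nuclear members). Of the members called under it, 55.9% were higher, against 49.7% of all genes called under it. Leaving the mitochondrial genome out and scaling the rest gave medians of 0.089 for all members, 0.070 for cytosolic and nuclear, 0.36 for ER, -0.26 for mitochondrial members and 0.17 for CCT subunits, with Hsp90aa1 at 0.083 and Hspa4 at 0.058. Removing the length trend gave -0.090 for mitochondrial members, 0.14 for CCT subunits and -0.039 for Dnajc3. Scaling to the table total gave -0.026 for Cct6a. Leaving out each library in turn moved Hspa8 between -0.031 and 0.18, Cct6a between -0.056 and 0.067 and Hspa4 between -0.17 and 0.030, none of them called. Of the single values of the 37 named members, 715 kept direction and call, 8 changed sign, 6 gained a call and 6 lost one, and no named member that was called changed sign. The causes of these shifts were not tested. No paired analysis was possible because the titles carry no replicate number. Depth limits Hspa1a, Hspa1b, Hspb8 and Hspb11, with under 70 normalised counts in each library.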

Other observations

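The highest old value of a chaperone gene lay in old replicate 5 for 23 of the 70 members, in old replicate 3 for 15, in old replicate 2 for 14, and in old replicates 1 and 4 for 9 each. In shares this was 32.9% in old replicate 5 and 21.4% in old replicate 3, where 22.3% and 19.2% of all 13081 genes in the table had their highest old value, a difference that was not tested. Of the 29 core members, 13 had theirs in old replicate 5, among them Hspa8, Hsp90aa1, Hsp90ab1, Hsp90b1 and Hsph1. Among the mitochondrial members, 7 of 10 had their highest young value in young replicate 2, Hspa9, Dnaja3 and Dnajc19 included, as did 24.6% of all genes in the table. The median transcript length was 3070.0 bases over the 19 members that rose and 2506 over the 22 that fell.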
